A study of Mus musculus with 14 samples.

Results

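The 959 regions described here were stretches of mouse heart chromatin carrying histone H3 lysine 27 trimethylation (H3K27me3) at 68 weeks of age whose linked genes were silent in the same tissue. They came from the authors' list of 3433 regions at 68 weeks, which names every region unique to that age. Regions kept at both ages are therefore not in it, and a gene without a region here may still carry the mark. A region was kept when the list linked it to at least 1 gene and no linked gene reached a mean of 0.5 CPM (its count scaled to the total counts of the library) over the 8 RNA libraries of the study, with IDs absent from the count table taken as 0. The 959 made up 27.9% of the 68-week list (95% Wilson interval 26.5 to 29.5%) and 56.1% of its 1708 regions with a gene. Of the others, 749 were linked to at least 1 expressed gene and 1725 to none. The regions were thus chosen by 2 measured values, their place in the authors' 68-week list and the mean RNA level of their genes, so their presence in that list and the low level of their genes are a description and not a result.

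The study compared hearts of 68-week-old mice with hearts of 12-week-old mice. All were male, wild-type C57BL/6 animals on standard chow, so neither sex, strain, genotype nor diet separated the ages. RNA-seq of total heart RNA gave 4 libraries at 68 weeks and 4 at 12 weeks, with 23599296 to 34599121 counts each. H3K27me3 was profiled by CUT&RUN, in which an antibody guides a nuclease that releases the DNA it binds, with 2 H3K27me3 libraries and 1 input library at each age. No source used here states that each library is a separate mouse, and the p-values below rest on the spread among libraries, which may be technical. Cardiomyocyte markers together reached 57773 to 70004 CPM in the 8 libraries. For the 20 airway epithelium markers the sum was 32.2, 20.2, 1284 and 33.6 CPM in replicates 1 to 4 at 68 weeks, against 1994, 1060, 630 and 71.5 CPM in replicates 1 to 4 at 12 weeks. One 68-week library and 3 of the 12-week libraries thus stood apart from the rest in airway RNA.

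H3K27me3 is deposited by Polycomb repressive complex 2 (PRC2), whose catalytic subunits are Ezh1 and Ezh2, and is removed by the demethylases Kdm6a and Kdm6b. The mark typically covers genes of other lineages that a cell keeps off, among them developmental transcription factors, signalling ligands and neuronal genes, and in mammals it is known for its preference for CpG-rich promoters. In the developing heart PRC2 is known for keeping non-cardiac gene programmes silent.

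Promoter sequences of linked genes show the contrast in CpG content that the regions' genes spanned. The windows below run from 250 bases before to 50 bases after the RefSeq start of the gene (GRCm38.p6), 5′ to 3′ on the gene's strand, with every CG in capitals. They were chosen, after their CG content was seen, as 3 CG-dense and 3 CG-poor examples. Wnt3a (a secreted Wnt ligand of the early embryo; chr11:59290702-59291001, minus strand) had 45 CG dinucleotides, Grik4 (a kainate-type glutamate receptor subunit; chr9:42944322-42944621, minus strand) had 42 and Onecut1 (a transcription factor of liver and pancreas; chr9:74861671-74861970, plus strand) had 38. Trpm8 (the cold- and menthol-sensing channel of sensory neurons; chr1:88306485-88306784, plus strand) had 1, Padi1 (a peptidylarginine deiminase of the epidermis; chr4:140845729-140846028, minus strand) had 3 and Olfr545 (an olfactory receptor; chr7:102494724-102495023, minus strand) had 2.
Wnt3a: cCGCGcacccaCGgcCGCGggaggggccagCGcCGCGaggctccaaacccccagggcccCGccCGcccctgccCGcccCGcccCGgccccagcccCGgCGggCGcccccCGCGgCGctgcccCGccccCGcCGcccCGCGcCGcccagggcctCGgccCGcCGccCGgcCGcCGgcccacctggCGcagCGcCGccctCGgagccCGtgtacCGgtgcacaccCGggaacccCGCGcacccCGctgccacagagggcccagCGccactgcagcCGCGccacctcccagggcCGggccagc
Grik4: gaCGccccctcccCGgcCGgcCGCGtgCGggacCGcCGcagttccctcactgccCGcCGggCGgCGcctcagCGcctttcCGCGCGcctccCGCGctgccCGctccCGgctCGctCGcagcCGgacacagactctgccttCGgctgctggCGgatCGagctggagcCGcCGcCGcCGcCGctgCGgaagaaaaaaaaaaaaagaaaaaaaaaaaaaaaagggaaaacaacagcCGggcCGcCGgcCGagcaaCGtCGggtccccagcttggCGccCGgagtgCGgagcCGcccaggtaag
Onecut1: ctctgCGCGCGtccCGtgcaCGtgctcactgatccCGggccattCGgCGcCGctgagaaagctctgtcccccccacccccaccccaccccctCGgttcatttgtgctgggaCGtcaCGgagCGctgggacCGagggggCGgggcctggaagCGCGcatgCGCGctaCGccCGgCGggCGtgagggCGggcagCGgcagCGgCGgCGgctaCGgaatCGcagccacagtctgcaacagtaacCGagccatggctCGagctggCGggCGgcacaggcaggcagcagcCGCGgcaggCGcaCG
Trpm8: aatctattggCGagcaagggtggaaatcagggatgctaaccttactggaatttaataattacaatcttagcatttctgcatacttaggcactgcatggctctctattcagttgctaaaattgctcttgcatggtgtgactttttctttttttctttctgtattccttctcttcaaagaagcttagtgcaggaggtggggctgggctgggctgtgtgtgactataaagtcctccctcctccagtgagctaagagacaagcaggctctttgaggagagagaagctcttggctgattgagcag
Padi1: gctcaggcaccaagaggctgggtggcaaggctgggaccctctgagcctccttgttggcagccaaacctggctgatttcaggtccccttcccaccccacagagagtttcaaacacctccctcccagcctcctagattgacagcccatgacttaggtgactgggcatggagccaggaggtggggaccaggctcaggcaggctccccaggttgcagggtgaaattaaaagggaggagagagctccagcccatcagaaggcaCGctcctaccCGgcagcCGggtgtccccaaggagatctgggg
Olfr545: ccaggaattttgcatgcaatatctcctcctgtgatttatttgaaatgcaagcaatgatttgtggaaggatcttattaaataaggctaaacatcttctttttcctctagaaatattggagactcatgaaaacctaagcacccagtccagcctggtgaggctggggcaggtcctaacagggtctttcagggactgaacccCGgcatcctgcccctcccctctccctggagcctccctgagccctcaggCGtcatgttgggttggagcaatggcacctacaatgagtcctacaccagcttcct

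The scores of the regions were close to those of the rest of the list. The authors gave each region an enrichment score, of unstated scale, with no value per library and hence no replicate error. The median score was 4.78 over the 959 regions (95% order-statistic interval 4.69 to 4.88; range 3.23 to 26.7), against 4.63 over the regions linked to expressed genes and 4.82 over those without a gene. Median widths were 265, 268 and 267 bp over the same sets. Most regions were weak within this scale: 179 of the 959 scored under 4, 369 scored 4 to 5, and 17 scored 10 or more. Score and width were nearly unrelated across the regions (Spearman rho 0.104, n = 959 regions of 1 list).

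**Figure D1:**
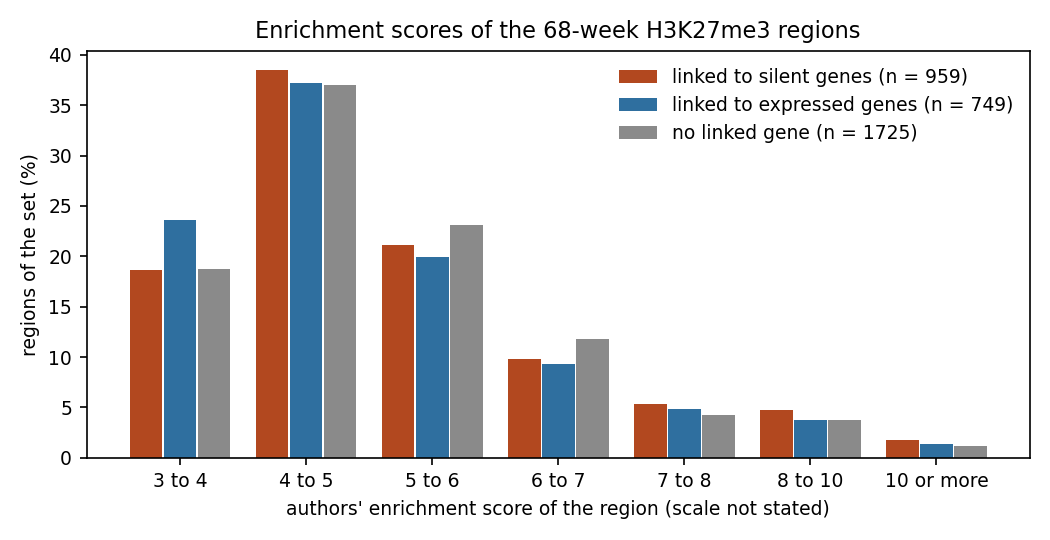
Share of regions (y axis, %) in each range of the authors' enrichment score (x axis, scale not stated) for 68-week regions linked to silent genes, linked to expressed genes and without a linked gene. The 3 sets had medians of 4.78, 4.63 and 4.82 and overlapped over nearly the whole range.

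The region with the highest score, 26.7, was linked to Mug-ps1, a murinoglobulin pseudogene, at chr6:122217883-122218148 in the list's coordinates. The genome build of the list's coordinates could not be established, and region positions are given as deposited. The next score, 18.5, belonged to a 223 bp region at chr17:40157871-40158093 linked to Rn18s-rs5, named for its relation to 18S ribosomal RNA, whose ID had no row in the count table. It was followed by Plut, a long non-coding RNA (14.9), C1qtnf3, a secreted protein of the C1q and TNF-related family (12.9), and the predicted genes Gm42997 (12.9) and Gm32027 (11.9, no row in the count table). Mcoln2, an endolysosomal cation channel (11.6), Grin2b, an NMDA receptor subunit (10.9), Padi1 (10.7) and the predicted gene Gm32540 (10.6) completed the 10 highest. Of the genes of these 10 regions, Mcoln2 had the highest RNA level, a mean of 0.392 CPM. The widest regions were 1051 bp at Gm13832, a predicted gene, 829 bp at Ropn1, a protein of the sperm flagellum, 807 bp at Syt2, a calcium sensor of synaptic vesicles, 781 bp at Plut and 742 bp at Gm5373.

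Several genes carried many separate regions. The 959 regions made 1028 links to 734 genes, and 168 of these genes (22.9%) had 2 or more. Asic2, an acid-sensing ion channel of neurons, had 9 regions spread over 717631 bp, and Rbfox3, a splicing factor used as a marker of mature neurons, had 9 over 271602 bp. Dlgap2, a scaffold of the postsynaptic density, had 6, Cldn10, a tight-junction claudin, and Galnt14, an enzyme that starts O-glycosylation, had 5 each, and Ccdc144b had 4. Trpm8 had 4, all within 3845 bp. Among predicted genes, which were named after their counts were seen, Gm13832 had 20 regions within 50519 bp, Gm37245 had 10 and Gm5373 had 8. Regions often lay near each other: 292 of the 959 (30.4%) were within 10000 bp of another of the 959, beside 260 of the 749 regions linked to expressed genes (34.7%). Genes with more regions were longer, with median spans of 27773 bp for protein-coding genes with 1 region, 73670 bp with 2 and 92025 bp with 3 or more.

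Of the 734 linked genes, 653 were measured and 81 had no row in the count table. The 82 regions linked only to such absent IDs met the rule without any RNA measurement. Of the measured genes, 172 (26.3%) had 0 counts in all 8 libraries, which allows a mean of up to 0.0127 CPM by counting error alone, 83 had a mean above 0 but under 0.01 CPM, 191 lay at 0.01 to 0.1 CPM and 207 at 0.1 to 0.5 CPM. Over all 34357 silent genes of the table, 54.1% had 0 counts throughout. By type, 445 of the 734 were protein-coding, 137 were long non-coding RNA genes, 25 were pseudogenes and 115 could not be matched to RefSeq.

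The 0.5 CPM limit fell between 0.479 and 0.515 CPM, the nearest values on either side. Just inside it were regions of Gm14066 (0.479 CPM), T2 (0.473), Sema4f, a semaphorin (0.473), Jph3, a junctophilin of the brain (0.468), and Myb, a transcription factor of blood progenitors (0.465). Just outside were regions of Slc5a1, a sodium-glucose cotransporter (0.515 CPM), Tgm4, a prostate transglutaminase (0.521), Ptprn2 (0.522), Slc25a48 (0.523) and Igsf21 (0.531). The limit applied to the mean over both ages and not to each age. Of the 653 genes, 2 averaged at least 0.5 CPM at 68 weeks, Jph3 at 0.543 and T2 at 0.511 CPM, and 23 did so at 12 weeks. These counts were not set beside all genes, so they are not read as a change with age. Airway RNA was high in 68-week replicate 3 and in 12-week replicates 1 to 3, and its part in these counts was not tested.

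Silent genes with a region were long. Of 7800 silent protein-coding genes, 442 (5.67%) had at least 1 of the 959 regions. Their median span was 36175 bp, against 7441 bp for silent protein-coding genes without any 68-week region, and 78441 bp for expressed genes linked to the list. The linked share was 1.88% of silent genes under 10 kb, 6.18% at 10 to 30 kb, 13.6% at 30 to 100 kb and 21.4% over 100 kb. The sources used here do not say how genes were linked to regions, and the part of gene length in the links was not tested.

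Promoters of the linked genes were CpG-rich more often than those of other silent genes and less often than those of expressed genes. A window was counted as CpG-rich at an observed-to-expected CpG ratio of at least 0.6 and a GC content of at least 50%. Of 734 linked genes, 472 matched a RefSeq window and 126 of these (26.7%) were CpG-rich. Among protein-coding genes the share was 28.4% for the linked silent genes (103 of 363; interval 24.0 to 33.2%), against 11.8% of 5719 silent genes without a 68-week region, 14.9% of these when olfactory and vomeronasal receptors were left out, and 50.3% of 336 expressed genes with a 68-week region. The share was 67.1% of 10174 expressed genes without a 68-week region. Among expressed genes a region thus went with a lower share, the reverse of the silent genes. These are descriptions of gene sets, with no test. Within the linked genes, the share was 16.7% of the 66 protein-coding genes with 0 counts in all libraries and 33.3% of the 141 above 0.1 CPM. The higher share of CpG-rich genes held in each span class: 36.6% of silent CpG-rich genes over 100 kb had a region and 17.9% of the other silent genes of that length, and under 10 kb the shares were 3.10% and 1.94%. The motif TATAAA, searched on both strands, was in 11.8% of the 363 windows and in 23.0% of the 5719. It was in 18.6% of the latter when olfactory and vomeronasal receptors were left out. Median GC content was 56% in the 363 and 47% in the 5719, and its part in the motif shares was not tested.

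**Figure D2:**
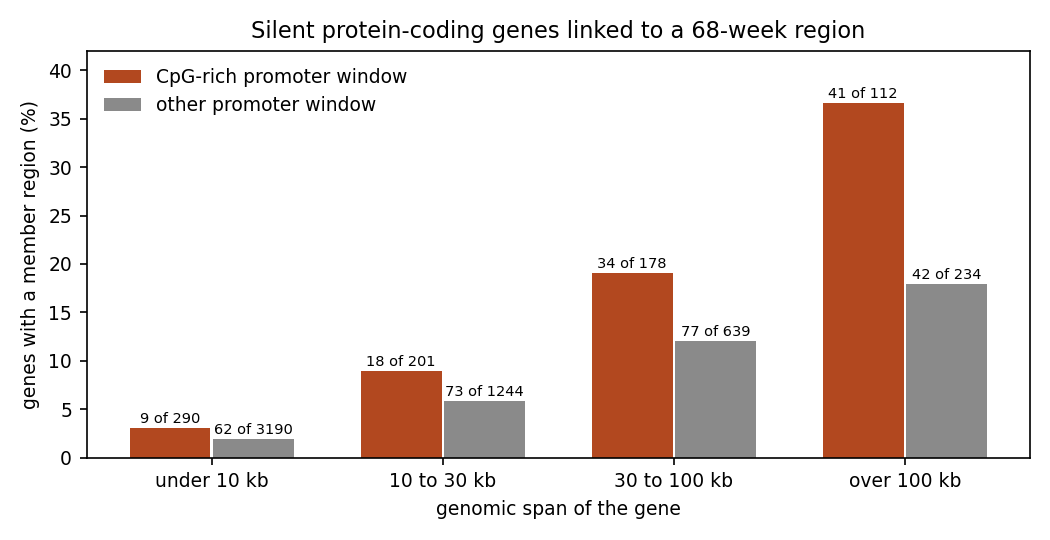
Share of silent protein-coding genes linked to at least 1 of the 959 regions (y axis, %) by genomic span (x axis) for CpG-rich and other promoter windows, with gene numbers above the bars. The share was larger at longer spans in both kinds of window and larger for CpG-rich windows in each class, with 3.10% under 10 kb and 36.6% over 100 kb.

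Voltage-gated and related ion channels had the largest linked share of the gene lists examined. Of 57 silent channel genes, 15 (26.3%) had a region, among them Trpm8 (highest score 10.1), the potassium channel Kcnh8 (8.97), the calcium channel auxiliary subunits Cacng2 (8.03) and Cacng8 (6.01), the calcium channel pores Cacna1e (6.84) and Cacna1i (6.64), the glial potassium channel Kcnj10 (6.15) and the potassium channel Kcnk12 (5.63). The silent channel genes had a median span of 45939 bp. Levels differed within the group: Kcnj10 had 0.449 and Cacna1e 0.435 CPM, and Cacng8 had 0.017 CPM.

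Receptors for neurotransmitters had 12 of 81 silent genes linked (14.8%). They included Grin2b (10.9), Chrna9, a nicotinic receptor subunit of cochlear hair cells (8.47), Htr1d, a serotonin receptor (6.78), Grik4 (5.98), Chrnb4, another nicotinic subunit (5.38), the metabotropic glutamate receptors Grm4 (5.22) and Grm8 (4.92), and Gabrb1, a GABA-A receptor subunit (4.88). Grin2b had 0, 0, 1 and 1 counts at 68 weeks and 2, 1, 0 and 2 at 12 weeks, and the ages overlapped. Of 58 silent synaptic and neuronal adhesion genes, 7 were linked (12.1%): Rbfox3 (7.79), Stxbp5l, a syntaxin-binding protein (7.11), Dlgap2 (5.73), the RNA-binding proteins Elavl2 (5.46), Celf6 (4.21) and Elavl3 (3.99), and Dscam, a neuronal adhesion molecule (3.42). The silent synaptic and adhesion genes had a median span of 352905 bp, and 21.4% of all silent protein-coding genes over 100 kb were linked. The silent neurotransmitter receptor genes had a median span of 25167 bp. Solute carriers had 16 of 141 silent genes linked (11.3%), among them the GABA transporters Slc6a11 and Slc6a13, the dopamine transporter Slc6a3, the glycine transporter Slc6a5 and the amino acid transporter Slc6a18.

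Secreted signals and receptors of development had 8 of 53 silent genes linked (15.1%). These were the Wnt ligands Wnt6 (6.67), Wnt3 (5.29) and Wnt3a (4.03), the axon guidance genes Unc5d (5.15) and Slit1 (4.73), the ephrin receptor Epha6 (4.73), the bone-derived phosphate hormone Fgf23 (4.25) and the activin-type subunit Inhbe (3.95). Wnt6 was the most highly expressed at 0.447 CPM, and its ages overlapped, with 14, 14, 10 and 14 counts at 68 weeks and 20, 9, 13 and 11 at 12 weeks. Homeobox regulators had a lower share, 9 of 128 (7.03%), and other developmental transcription factors 10 of 91 (11%). Silent genes of these 2 lists were short, with median spans of 6098 and 5635 bp. Of all silent protein-coding genes under 10 kb, 1.88% were linked. Silent genes of the secreted signals and receptors list had a median span of 12664 bp. Shares of the lists were not compared at equal gene length. Regions kept at both ages are not in the authors' list, so a low share does not show a lack of the mark. The homeobox group held Pax7, a regulator of muscle satellite cells (6.92, 3 regions), Onecut1 (5.84), Pax2, a regulator of kidney development (5.30, 4 regions), Onecut2 (4.84), Emx1 of the cerebral cortex (4.66), Lmx1b of the limb and brain (4.53), Barx2 (4.33) and Dmbx1 (4.09). The other factors included Tbx21, the T-bet factor of T helper cells (9.56), Myt1 (5.07) and Myt1l (4.31) of neurons, Dmrt1 of the testis (4.81), Tbx4 of the hindlimb (4.67), Sox11 (4.64), Foxn4 (4.64) and Tfap2c (3.75). Of the retina and testis list, 3 of 45 silent genes were linked: Dmc1, a recombinase of meiosis (5.81), Tdrd5 of the germline (5.53) and Pde6a, a phosphodiesterase of rod photoreceptors (5.06).

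Chemosensory receptor families had few regions. Olfactory receptors had 12 of 1398 silent genes linked (0.858%), led by Olfr545 (10.4), and all 12 had 0 counts in every library. Vomeronasal receptors had 2 of 525. The median span was 5244 bp over silent olfactory receptors and 970 bp over silent vomeronasal receptors. Other families varied: defensins and serpins had 0 of 82 and 0 of 51 (median spans 1612 and 10468 bp), keratins and their associated proteins 7 of 102 (6.86%; 1127 bp), and kallikreins, a family of serine proteases, 4 of 35 (11.4%; 4316 bp), beside 5.67% of all silent protein-coding genes. Families were taken by symbol and could hold pseudogenes, such as the linked Vmn2r-ps53 and Klk1b10-ps. Of all silent genes of any type 1.90% were linked, and of silent pseudogenes 0.338%. The microRNA gene Mir301b shared a region of score 8.47 with 2610318N02Rik and had 0 counts in every library, and the RefSeq table held its 5p mature sequence (chr16:17124456-17124477, minus strand, GRCm38.p6), with the seed in capitals.
mmu-miR-301b-5p: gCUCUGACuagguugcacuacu

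**Figure D3:**
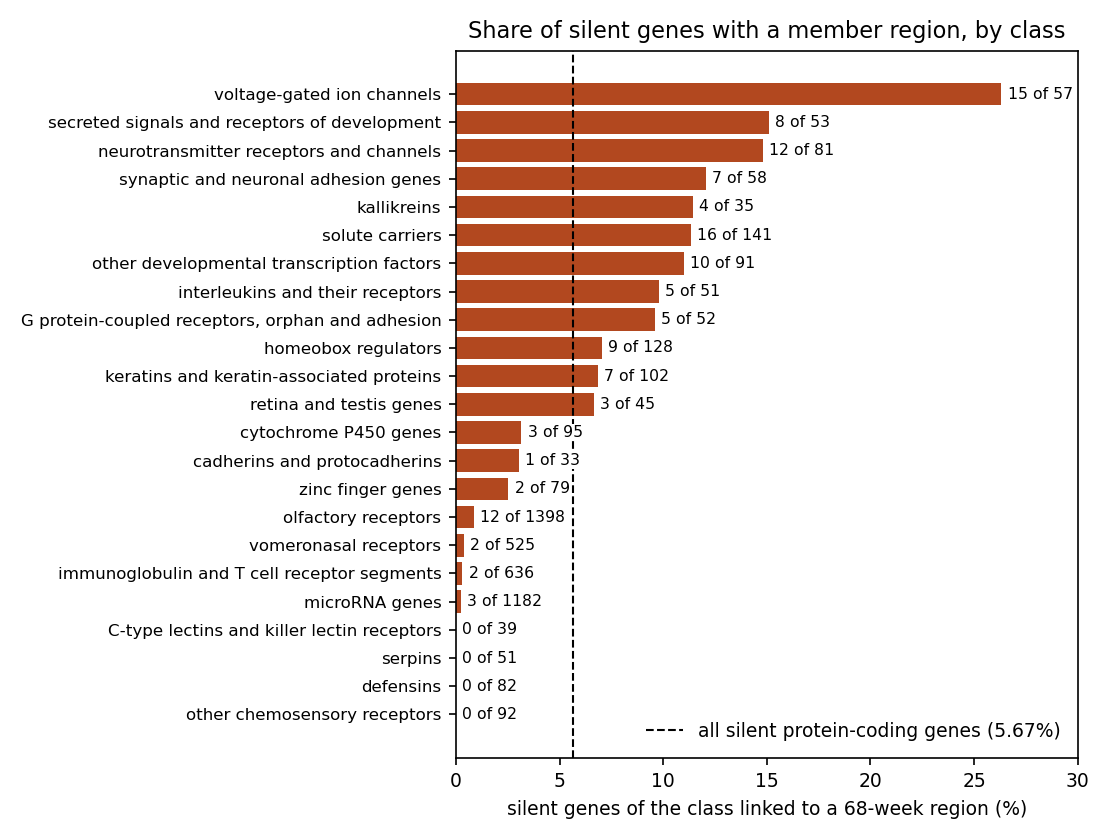
Share of silent genes linked to at least 1 of the 959 regions (x axis, %) for each class of at least 30 silent genes (y axis), with gene numbers beside the bars and the share over all silent protein-coding genes, 5.67%, as a dashed line. Ion channels stood at 26.3% and olfactory receptors at 0.858%. Classes taken by symbol were not limited to protein-coding genes, unlike the dashed line.

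A part of the linked genes also had a region in the 12-week list. The file names every region unique to its age, so neither list could show a region kept at both ages, and 0 of the 959 overlapped a 12-week region. Of the 734 genes, 55 were also linked to a 12-week region, which was 7.49% of the 734 and 10.0% of the 549 genes in the 12-week list. For scale, the count table held 49315 genes. Among the 544 genes of 68-week regions linked to expressed genes the share was 5.88%. In the shared genes the closest regions of the 2 lists were 483 to 99795 bp apart, with a median of 14257 bp. Shared genes with high 68-week scores included Rbfox3, with a top score of 7.79 at 68 weeks and 5.24 at 12 weeks, Acoxl (6.94 and 8.20), Pax7 (6.92 and 3.70), Wnt6 (6.67 and 4.08), Cacna1i (6.64 and 3.73), the hexose transporter Slc2a7 (6.33 and 4.61), Srrm3, a splicing regulator of neurons (6.20 and 4.50), Grik4 (5.98 and 4.02) and Onecut1 (5.84 and 3.92). Of the 55, 40 had the higher top score at 68 weeks. A top score is the highest over a gene's regions, and the lists held 3433 regions at 68 weeks and 1164 at 12 weeks. Rbfox3 had 9 regions at 68 weeks and 2 at 12 weeks, while Gm28050 had 1 and 5. Whether scores of the lists share a scale was not given, so this count cannot compare the ages. CpG-rich windows were found in 59.3% of 27 shared protein-coding genes and in 28.4% of all 363 linked ones. Silent genes of the 12-week list had 52.2% (71 of 136), and regions linked to silent genes made up 54.7% of the 12-week regions with a gene (366 of 669).

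The linked genes together gave little RNA at either age. The summed level of the 653 measured genes was 48.6, 43.5, 74.0 and 39.0 CPM in replicates 1 to 4 at 68 weeks, against 88.9, 64.4, 73.3 and 48.3 CPM in replicates 1 to 4 at 12 weeks, or 51.3 ± 15.7 and 68.7 ± 17.0 CPM (SD, n = 4 each). Between 295 and 350 of them had a count in a 68-week library and between 304 and 373 in a 12-week library. The ages overlapped in both measures. The 4 libraries with airway marker sums of 630 CPM or more were also the 4 with the highest sums of linked genes, and the part of airway RNA in these sums was not tested. In bulk tissue, fewer cells of a type and less RNA per cell cannot be told apart.

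**Figure D4:**
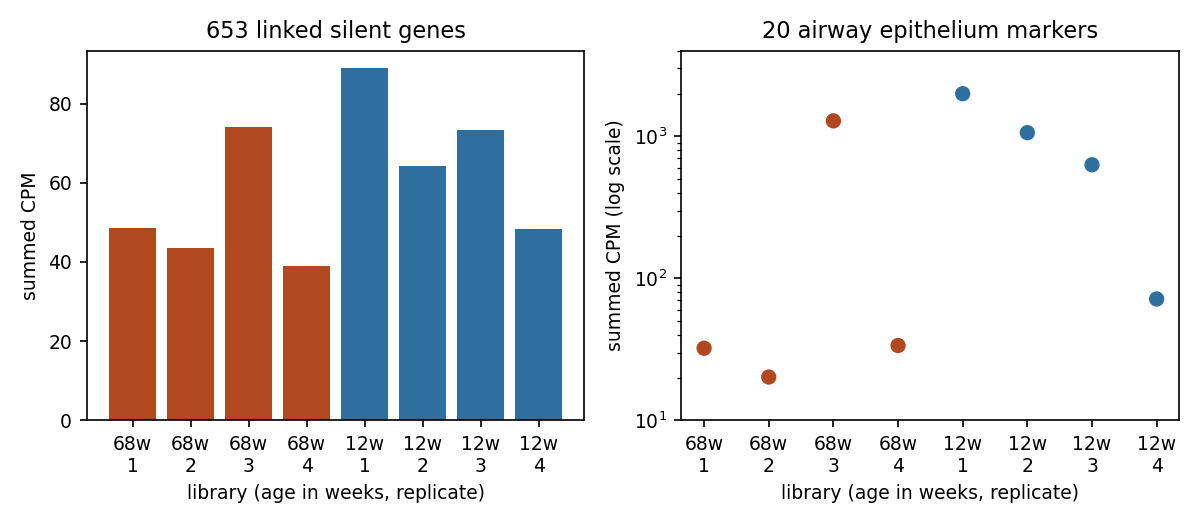
Summed CPM of the 653 measured linked genes (left, linear axis from 0) and of 20 airway epithelium markers (right, log axis) in each library, with 68-week libraries on the left of each panel. 68-week replicate 3 and 12-week replicates 1 to 3 were highest in both.

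No linked gene passed the test for a change of RNA with age. With edgeR's quasi-likelihood test, Benjamini-Hochberg adjustment over the 15947 genes that passed the filter on low counts and a threshold of 0.05, 0 of the 51 linked genes tested were called. Over all genes tested 2.83% were called, 1.61% higher and 1.22% lower. A gene under 0.5 CPM on average passed the filter only where enough of its libraries were high, so these 51 do not stand for the 734. At an unadjusted p under 0.05, 0 of the 51 were higher and 5 lower, beside 19.0% of all genes tested in either direction. The median log2 fold change was -0.23 over the 51 and -0.01 over all genes tested. DESeq2 called 0 of 69 linked genes, beside 6.14% of all genes it tested. The smallest p belonged to Wdr93, a WD-repeat protein, with 0.164, 0.139, 0.449 and 0.0867 CPM at 68 weeks and 0.947, 0.803, 0.551 and 0.399 CPM at 12 weeks, a log2 fold change of -1.62 ± 0.47 (SE; edgeR adjusted p = 0.10). The highest 68-week library, replicate 3, lay between the 2 lowest 12-week libraries. Without it the value was -2.30 (edgeR adjusted p = 0.0358), and with the airway marker sum as a covariate and all libraries it was -0.92 (edgeR adjusted p = 0.262).

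The next 4 genes by p also had lower estimates at 68 weeks, and none passed. Slc4a5, a sodium bicarbonate cotransporter of epithelia, had 0, 0.0347, 0.417 and 0.0578 CPM at 68 weeks and 1.42, 0.730, 0.551 and 0.0726 CPM at 12 weeks. Dcdc2a, a doublecortin-domain protein of primary cilia, had 0, 0.0347, 0.417 and 0.0289 CPM at 68 weeks and 1.01, 0.730, 0.466 and 0.0726 CPM at 12 weeks. In both genes 68-week replicate 3 and 12-week replicates 1 to 3 were high and the other 4 libraries low, as in the airway markers. The log2 fold change of Slc4a5 was -2.35, with -4.22 without 68-week replicate 3 and -0.96 with the airway covariate, and that of Dcdc2a was -2.16, with -4.44 and -0.84 in the same fits. Tshr, the thyrotropin receptor, had 0.36, 0.208, 0.257 and 0.173 CPM at 68 weeks and 0.6, 0.219, 1.02 and 0.435 CPM at 12 weeks, and C2cd4b averaged 0.25 ± 0.106 CPM at 68 weeks and 0.491 ± 0.178 CPM at 12 weeks (SD, n = 4 each). Of the remaining genes among the 10 smallest p, Spire2, an actin nucleator, Slc19a3, a thiamine transporter, Ak8, an adenylate kinase, and Plch1, a phospholipase C, had lower estimates, from -0.62 for Slc19a3 to -1.95 for Plch1. Without 68-week replicate 3 the estimate was -4.63 for Plch1, -2.52 for Ak8 and -1.63 for Spire2, and with the airway covariate it was -0.57, -0.32 and -0.35 for the same genes. Estimates of Tshr, C2cd4b and Slc19a3 changed little with that covariate, at -1.05, -0.79 and -0.67, against -1.11, -0.90 and -0.62 with age alone. Mcoln2 had the only higher estimate, with 0.491, 0.381, 0.803 and 0.318 CPM at 68 weeks and 0.442, 0.183, 0.339 and 0.181 CPM at 12 weeks, a log2 fold change of 0.84 ± 0.39 (edgeR adjusted p = 0.284; 1.34 with the airway covariate), and its ages overlapped.

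Without the filter on low counts, edgeR tested 481 linked genes among 30711 and called 3, which were named after their values were seen. That was 2 higher and 1 lower, beside 1.93% of all genes in that fit (1.05% higher, 0.882% lower). Epha6, a receptor for ephrin-A ligands in axon guidance, had 22, 20, 11 and 6 counts at 68 weeks and 1, 0, 1 and 0 at 12 weeks, a log2 fold change of 4.50 ± 0.75 (edgeR adjusted p = 0.0051). Every 68-week library stood above every 12-week library. Its 59 counts of 125148718 at 68 weeks against 2 of 110205279 at 12 weeks gave a ratio of 26, with an exact interval for counting error alone of 6.88 to 219.5. Epha6 stayed past the threshold without any one of the 8 libraries (log2 fold changes of 4.16 to 5.03) and at 4.17 with the airway marker sum as a covariate (edgeR adjusted p = 0.025). Its gene spans chr16:59653483-60605531 (mm10), and its single region scored 4.73.

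Ksr2, a scaffold of the Ras to MAP kinase cascade, had 7, 16, 19 and 14 counts at 68 weeks and 5, 2, 3 and 2 at 12 weeks, again without overlap. The log2 fold change was 2.08 ± 0.46 (edgeR adjusted p = 0.0283), and it missed the threshold in 5 of the 8 fits that left out 1 library (1.91 to 2.31; edgeR adjusted p of 0.0131 to 0.0807). Ksr2 carried 4 regions, with scores of 3.87 to 7.48. Tmprss4, a transmembrane serine protease of epithelia, had 0, 0, 3 and 1 counts at 68 weeks and 31, 13, 8 and 2 at 12 weeks, and its ages overlapped. Its log2 fold change was -3.65 ± 0.83 (edgeR adjusted p = 0.0333), it missed the threshold in 5 of the 8 fits without 1 library, and it was -2.30 with the airway covariate (edgeR adjusted p = 0.125). Its region, of score 6.17, was shared with BC049352. Over the 481 genes, CPM values of the ages did not overlap in 15 (7 higher, 8 lower), 3.12%, beside 7.89% of all genes in that fit (2.12% higher, 5.76% lower).

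**Figure D5:**
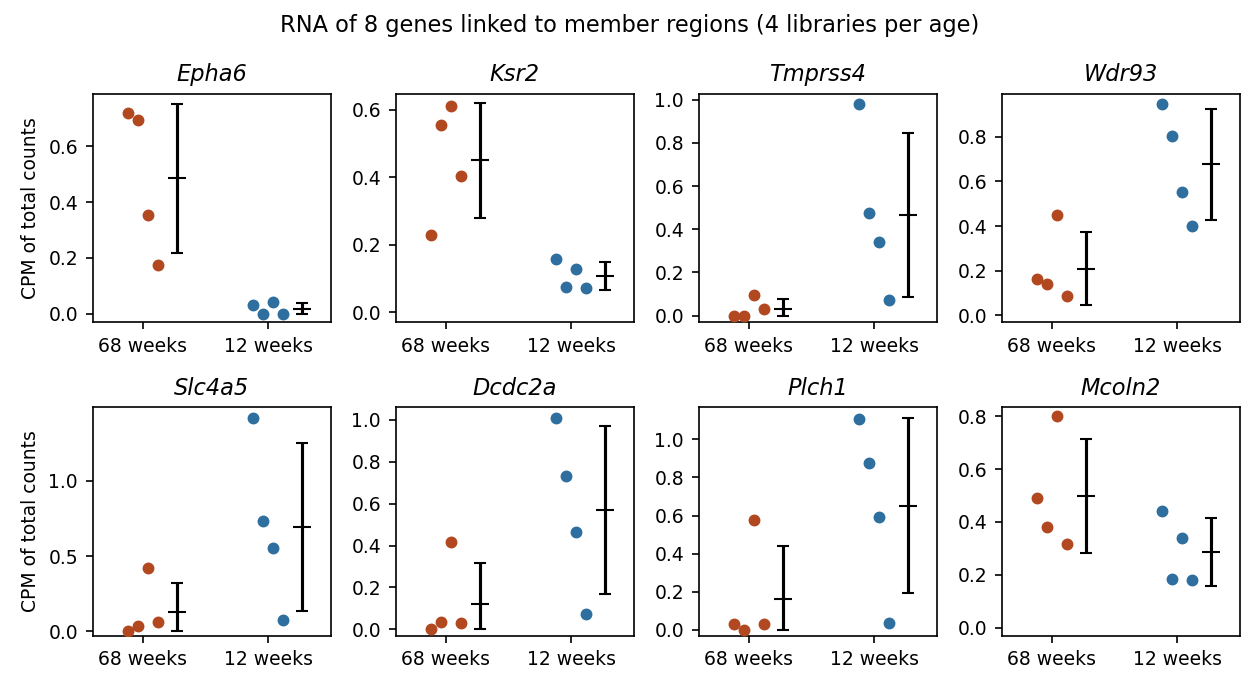
CPM of total counts (y axis) in each library at 68 and 12 weeks for 8 linked genes, with the mean and SD beside the points (lower bar ends at 0 where the SD exceeds the mean). Epha6 and Ksr2 were higher in every 68-week library, and in Slc4a5, Dcdc2a and Plch1 a single 68-week library lay far above the other 3.

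The count of lower genes in the fit without filter was 1 with all libraries, beside 0.882% of all genes. It was 6 without 12-week replicate 4 and moved most without 68-week replicate 3. Without that library, which had the airway marker sum of 1284 CPM, 22 linked genes were called lower and 2 higher of 477, beside 3.49% of all genes in that fit (2.15% lower, 1.33% higher). The 22, seen only after the fit, included the cilia- and flagella-associated genes Cfap57, Cfap58 and Cfap77, and Wdr93, Dcdc2a, Kcnk12 and Myb. Cfap77 had 0, 0.104, 0.738 and 0 CPM at 68 weeks and 1.52, 0.657, 0.297 and 0.0726 CPM at 12 weeks, and its log2 fold change was -4.07 without the library (edgeR adjusted p = 0.0278) and -1.53 with it. Kcnk12 had 0, 0, 0.225 and 0 CPM at 68 weeks and 1.26, 0.475, 0.381 and 0.0363 CPM at 12 weeks. With the airway marker sum as a covariate and all 8 libraries, 3 were called lower and 2 higher, beside 1.18% of all genes (0.531% lower, 0.648% higher). Those 3 were Gm13832 (chr5:115359078-115422863, mm10), A930005G22Rik (chr5:115420597-115422500) and Gm43231 (chr5:115427218-115429475), neighbours that were measured almost entirely in 12-week replicates 3 and 4: Gm43231 had 1, 0, 0 and 0 counts at 68 weeks and 1, 0, 25 and 28 at 12 weeks. A930005G22Rik lies within Gm13832 on the opposite strand, and whether the counting used strand was not given, so reads of this pair cannot be told apart.

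The writers and erasers of the mark were themselves expressed. None of 13 PRC2 genes was silent, and 0 were called higher or lower (log2 fold changes of -0.25 for Ezh2 to 0.41 for Phf19; smallest edgeR adjusted p = 0.205). Of 3 demethylase-family genes 1 was called: Uty, the Y-linked relative of Kdm6a, averaged 29.4 ± 0.57 CPM at 68 weeks and 34.7 ± 2.18 CPM at 12 weeks, a log2 fold change of -0.18 ± 0.04 (edgeR adjusted p = 0.0491). Over all genes tested 2.83% were called, 1.61% higher and 1.22% lower. Uty lay just past the threshold, and its values in the other fits are not given here. Since all 16 PRC2 and demethylase-family genes were expressed, the rule kept any region linked to them out of the 959.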

How the data were processed

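The authors deposited raw RNA counts, whole reads per gene with no normalization. The region lists gave 1 score per region, named enrichment by the authors, with a width in bp. Per the submitters' processing notes, the tools were MACS3 3.0.0b1, Picard 2.26.2, SAMtools 1.14, Bowtie2 2.4.2, Trim Galore 0.6.5, STAR 2.5.2b, Subread 1.5.2 (featureCounts), Trimmomatic 0.36 and DESeq2, and the build was mm10; their roles were not stated there. No source used here gives strand use, how genes were linked to regions or how libraries were combined. Of 927 links with a measured gene, 18.2% had the region inside the gene as the count table places it. The median of gene centre minus region differed by chromosome, with 342373 bp on chromosome 7 and -491656 bp on chromosome 8. The 18.2% therefore does not measure how many regions lie inside their genes, and no build is given for regions.

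Levels are CPM of each library's total counts. Age was tested with edgeR 4.0.16 (R 4.3.3; quasi-likelihood, TMM, filterByExpr, age alone, Benjamini-Hochberg over all genes tested). DESeq2 1.42.0 was an alternative. Log2 fold changes are 68 minus 12 weeks, and their approximate SE is its size over the root of edgeR's F. Only the main edgeR fit was tested on simulated data, built from genes that had passed the filter on low counts. The alternatives, among them the fit without filter, were not tested in this way. Library pairs of 1 age differed beyond sampling noise (lowest chi-square over its degrees of freedom 15.7). Intervals and the limit from a count of 0 (3 counts) cover counting error only. Gene types, promoter windows and the microRNA came from RefSeq (GRCm38.p6), matched by symbol, with 619 of 734 genes matched and 1 window per gene at its most upstream start.

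Members and lists were chosen with earlier results of these data known. Named were the genes of the 10 highest and 5 widest regions, the 8 genes with most regions, any called gene, the 5 regions on each side of the limit, up to 10 genes shared with 12 weeks, up to 8 genes per list, and the 10 smallest p. Predicted genes were left out of the gene rankings. Other named genes were chosen after their values were seen. Some genes under these rules are not reported here.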

Additional observations from a re-analysis of the deposited data

Results flagged for a closer look

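Within each age, the 4 libraries of 15 quantities were examined for a library far from the other 3, which made 30 groups, and 3 were flagged. For normally distributed values about 1 in 20 groups is flagged by chance. Most of these groups came from low-count genes chosen for small p in the same libraries, so that rate may not hold here. In all 3 a single 68-week library, replicate 3, stood above the others: Slc4a5 had 0.417 CPM there and 0 to 0.0578 CPM in the other 3, Dcdc2a had 0.417 CPM and 0 to 0.0347 CPM, and Plch1 had 0.578 CPM and 0 to 0.0327 CPM. The same library had an airway marker sum of 1284 CPM, against 20.2 to 33.6 CPM in the other 68-week libraries. With the airway marker sum as a covariate, the log2 fold changes were -0.96 for Slc4a5, -0.84 for Dcdc2a and -0.57 for Plch1, against -2.35, -2.16 and -1.95 with age alone, and none passed the threshold in either fit.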

How the results depend on the processing

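The number of regions was 805 to 1067 with other limits on RNA level, other library sets for the mean, or absent IDs left out, and 954 to 971 when the mean left out 1 library. The median score was 5.81 over those that scored at or above the median of all 68-week regions. The share of genes with a 12-week region was 3.68% with only 12-week regions at or above their median score, and 40.9% of genes had at most 1 count in each library, beside 26.3% with 0. Without the filter on low counts, 2 linked genes were called higher and 1 lower, beside 1.93% of all genes in that fit. Leaving out 1 library in turn gave 0 to 1 higher and 0 to 1 lower, beside 1.05 to 2.05% of all genes called in these fits: Ksr2 higher without 68-week replicate 1, Epha6 higher without 68-week replicate 4 and without 12-week replicates 3 or 4, Wdr93 lower without 68-week replicate 3, and Tmprss4 lower without 12-week replicate 4. Leaving out 1 library with no filter gave 1 to 2 higher and 0 to 22 lower, beside 1.19 to 3.49% of all genes called in these fits. That alternative was chosen after seeing the data, like those with the airway covariate for 3 genes, any RefSeq start and means over 7 libraries. Of the 13 genes whose fold changes were recomputed (the 10 smallest p, Epha6, Ksr2 and Tmprss4), none reversed.

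No pairing of the libraries by replicate number was seen. Deviations of same-numbered libraries correlated at -0.243, -0.041, 0.041 and 0.330, and those of differently numbered libraries at -0.614 to 0.583. These correlations cannot exclude a pairing, since deviations within an age are not independent. With the replicate block, 0 linked genes were called higher and 0 lower, as without it, while over all genes 112 were higher and 48 lower, against 256 and 195. Genes near 0 counts were limited by depth: 3 counts over all libraries amount to 0.0127 CPM.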
